A study of Mus musculus with 6 samples.

Results

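Trpm1, Met and Ppargc1a are known targets of the transcription factor Mitf, and the H3K27ac signal over these 3 genes was compared between low pigment (LP) and high pigment (HP) B16 F10 cells. All peaks that lay in a gene or within 20 kb of it were taken from the authors' 4 peak lists. Overlapping peaks of the 4 lists were joined into regions, and 97 of all 182956 regions fell into the windows of the 3 genes, out of 21951 protein-coding genes in the annotation. The Trpm1 window held 25 regions, the Met window 48 and the Ppargc1a window 24.

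Mitf is the master regulator of the melanocyte lineage and binds E-box motifs in front of pigmentation genes and of genes that serve growth, survival and metabolism. Trpm1 encodes melastatin, a cation channel of melanocytes and retinal bipolar cells, and carries the miR-211 gene in an intron. Met encodes the receptor tyrosine kinase for hepatocyte growth factor, which acts on the growth and motility of melanocytes. Ppargc1a encodes PGC-1α, a coactivator that raises mitochondrial gene expression and oxidative metabolism. H3K27ac is a histone acetylation of active promoters and enhancers.

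B16 F10 is an established mouse melanoma line, and the labels give no genetic change or drug treatment. The cells of both groups came from the same culture, seeded at 100 cells/cm2 and grown for 5 days, and were then sorted by side scatter into LP and HP, with 2 replicates of each. IgG libraries from unsorted cells, 1 per replicate number, served as the authors' controls for peak calling. The comparison of LP with HP asks whether acetylation differs between the pigmentation states, in a single tumour line sorted by a light scatter gate. ChIP on a sorted pool gives an average, so a higher signal in more cells and a stronger signal per cell cannot be told apart. The sources do not say whether the replicates came from separate cultures, so p-values refer to the spread between these libraries only.

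The libraries held 11467942 to 15353176 fragments and the lists 57942 to 71529 peaks. The authors' pileup, the number of fragments over a peak summit, had a median of 7 to 12 per list, and the lowest pileup in a list was 5 or 6. For comparisons it was divided by the fragments of the library and given per 1000000 fragments (scaled pileup), so that a single fragment was worth 0.0651 to 0.0872. A precise value is therefore only to be had at the high regions. All 8 melanocyte markers examined (Mitf, Sox10, Pax3, Tyr, Tyrp1, Dct, Pmel and Mlana) had a region at a start in all 4 libraries. None of the 5 markers of other cells did, and Ptprc, a leukocyte gene, had no peak at a start in any library. The others had peaks in some libraries. Col1a1, a fibroblast gene, had them in LP replicate 2 and in both HP replicates. Pecam1, an endothelial gene, had them in LP replicate 1 and HP replicate 1. Of the epithelial genes, Epcam had a peak in LP replicate 2 and Krt14 in HP replicate 2. Over the 12084 regions called in all 4 libraries the scaled pileup was higher in HP nearly throughout, with a median log2 ratio of HP to LP of 0.92, and of 0.57 in replicate 1 and 1.30 in replicate 2. A ratio of a member is read against that shift. The ratio after each library's median was subtracted is called the centred ratio, and its median over all regions was −0.087.

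The sequences before the starts are shown first, since the 3 genes differed in whether and where a peak was called at a start. Sequences are from GRCm38 (mm10), 5′ to 3′ on the strand of the gene, in lower case with matches to the E-box forms CATGTG (read on either strand, CACATG on the other) and CACGTG in capitals. They end at the base before the annotated start, so none holds transcribed sequence of that start.
Trpm1 upstream start, chr7:64153635-64153834, plus strand: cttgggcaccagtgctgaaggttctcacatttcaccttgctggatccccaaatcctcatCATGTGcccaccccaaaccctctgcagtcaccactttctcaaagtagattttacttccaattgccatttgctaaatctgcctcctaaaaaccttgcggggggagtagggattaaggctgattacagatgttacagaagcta
Trpm1 downstream start, chr7:64185111-64185380, plus strand: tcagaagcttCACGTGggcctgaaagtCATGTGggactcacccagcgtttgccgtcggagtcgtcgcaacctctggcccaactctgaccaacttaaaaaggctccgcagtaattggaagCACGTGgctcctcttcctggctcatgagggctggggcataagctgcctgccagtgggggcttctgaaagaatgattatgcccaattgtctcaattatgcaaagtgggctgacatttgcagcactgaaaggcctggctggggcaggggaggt
Met start, chr6:17463600-17463799, plus strand: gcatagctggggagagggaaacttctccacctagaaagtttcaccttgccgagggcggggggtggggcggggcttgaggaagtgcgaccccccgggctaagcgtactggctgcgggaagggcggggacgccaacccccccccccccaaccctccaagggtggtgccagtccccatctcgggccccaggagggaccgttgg
Ppargc1a upstream start, chr5:51567727-51567926, minus strand: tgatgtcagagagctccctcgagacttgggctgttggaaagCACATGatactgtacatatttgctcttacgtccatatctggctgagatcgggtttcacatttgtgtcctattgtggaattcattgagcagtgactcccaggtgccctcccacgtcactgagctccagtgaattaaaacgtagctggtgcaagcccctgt
Ppargc1a downstream start, chr5:51553923-51554122, minus strand: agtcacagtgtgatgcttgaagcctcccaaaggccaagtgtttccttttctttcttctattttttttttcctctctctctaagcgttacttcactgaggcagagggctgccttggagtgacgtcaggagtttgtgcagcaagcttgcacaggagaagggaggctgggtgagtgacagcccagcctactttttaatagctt

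The sequence before Met was GC-rich, at 69% G and C, against 47% and 55.2% before the starts of Trpm1 and 49% and 48% before those of Ppargc1a. It held no E-box match. The nearest CACGTG lay in the transcribed part, 72 bases from the summit of the region, and is given with its flanks.
Met CACGTG match, chr6:17463819-17463848, plus strand: gggacgaacagaCACGTGctggggcgggta
Of 32851 promoter windows of 300 bases in RefSeq (GRCm38), 14.2% held CATGTG and 7.15% held CACGTG on either strand, and 3.77% each held the longer forms TCATGTG and TCACGTG, which contain them. In these windows Met held CACGTG, the upstream start of Trpm1 and the upstream start of Ppargc1a held TCATGTG, and the downstream start of Trpm1 held CATGTG and CACGTG. No library had a peak within 1 kb of the upstream start of Trpm1.

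**Figure D1:**
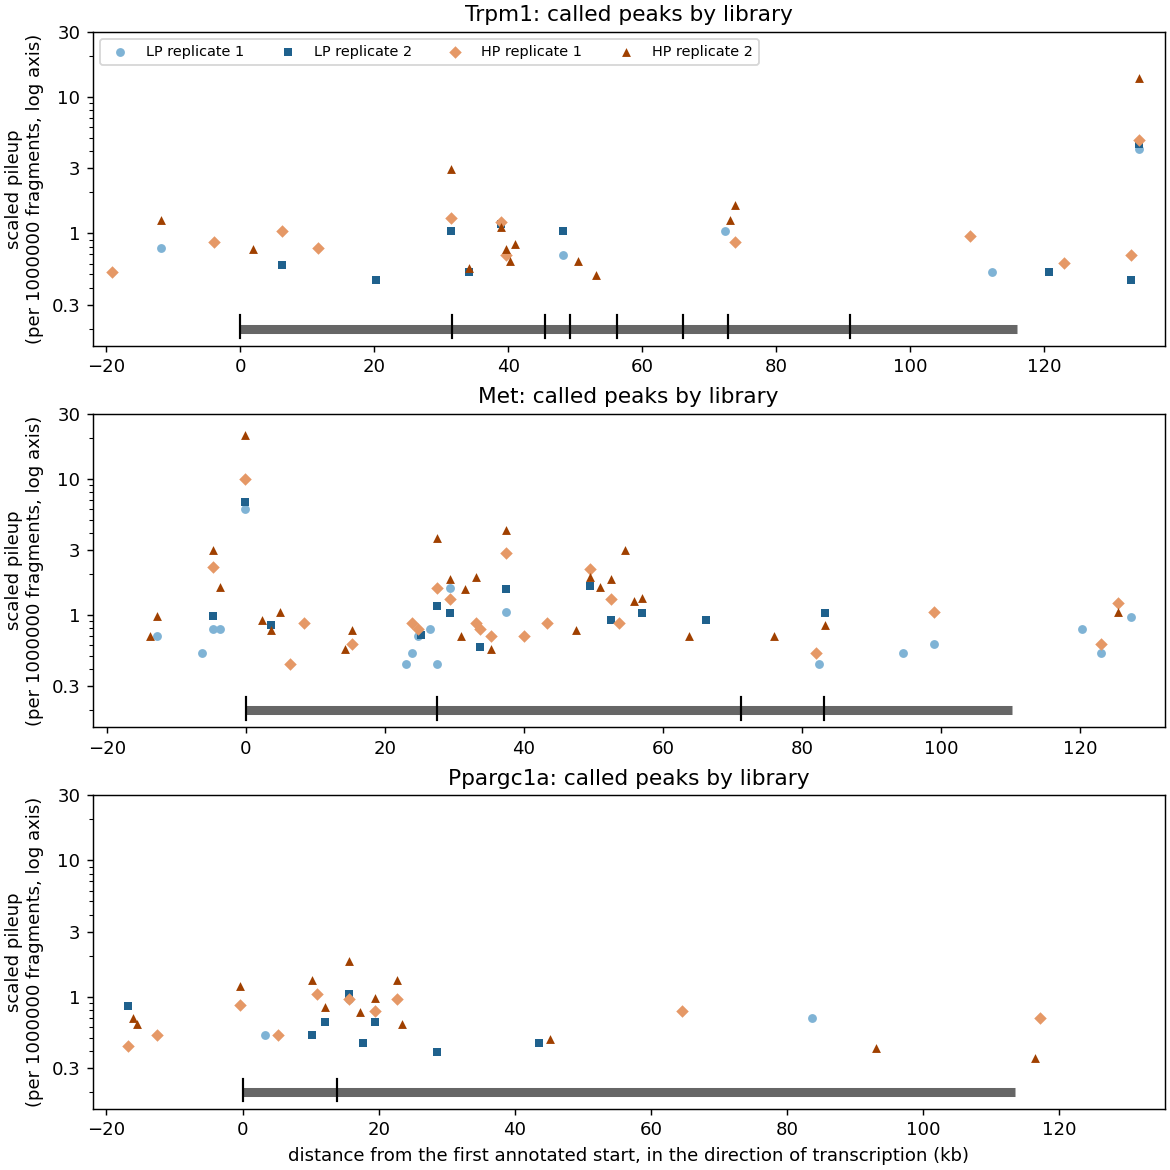
Scaled pileup (per 1000000 fragments, log axis) of every called peak region against the distance of its summit from the first annotated start in kb, for the 3 genes and the 4 libraries. The grey bar is the gene and black ticks are annotated starts. Met has a start region in all 4 libraries at 6.02 to 20.8, whereas the first tick of Trpm1 has no point above it and Ppargc1a stays below 2.

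Met carried the strongest signal of the 3 genes, at its own start (chr6:17462399-17465786). LP replicates 1 and 2 had pileups of 69 and 103 fragments there, and HP replicates 1 and 2 had 115 and 297, which scaled to 6.02, 6.71, 10.0 and 20.8. Both HP libraries lay above both LP libraries, and HP replicate 2 stood apart from the rest. The log2 ratio was 1.18 ± 0.54 (SE, n = 2 against 2), with an adjusted p of 0.114 in limma, and the centred ratio was 0.17. The ratio of the Met start was thus within the spread of all regions, at percentile 74.5.

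Another start of Met, 27.4 kb into the gene, lay in the region chr6:17490565-17492427, whose summit fell in exon 3 of the longest coding transcript. LP had pileups of 5 and 18 and HP of 18 and 52, which scaled to 0.436, 1.17, 1.57 and 3.65. Both HP libraries were above both LP libraries, and the value of LP replicate 1 was at the lowest pileup of its list. The log2 ratio was 1.74 ± 0.54 (SE, n = 2 against 2) with a 95% interval of 0.68 to 2.81, and limma gave an adjusted p of 0.047. This was the only region of the 3 genes that passed the threshold, 1 of 7 tested against 4.01% of all tested regions, and 0 were lower, also at an unadjusted p under 0.05. The call was lost with the replicate block (adjusted p = 0.061 in limma), and the log2 ratio fell to 1.03 without LP replicate 1 (adjusted p = 0.43). It was also lost without LP replicate 2, at a log2 ratio of 2.46 (adjusted p = 0.263), and after centring, at 0.73 (adjusted p = 1.00). At the stricter q-value of 0.01 the region was not called in LP replicate 1 and could not be tested.

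**Figure D2:**
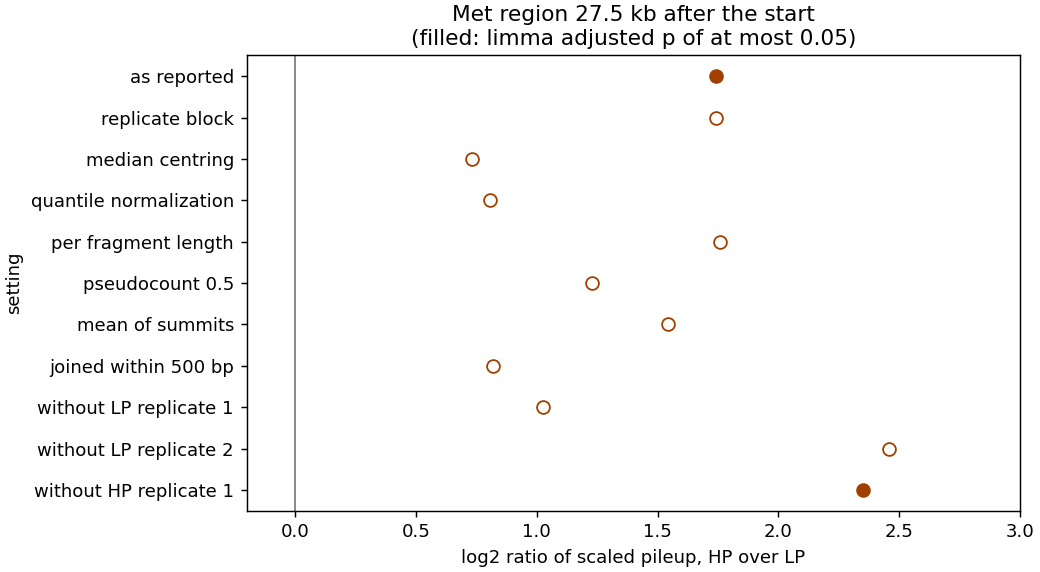
log2 ratio of scaled pileup, HP over LP, of the Met region 27.5 kb after the start under each way of processing in which it was tested. Filled points have a limma adjusted p of at most 0.05, which are the reported setting at 1.74 and the setting without HP replicate 1 at 2.35, and all other points are open.

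The sequences around this summit and that of the region 37.4 kb after the start are given because they differ in kind.
Met, 27.5 kb after the start, chr6:17491267-17491387, plus strand: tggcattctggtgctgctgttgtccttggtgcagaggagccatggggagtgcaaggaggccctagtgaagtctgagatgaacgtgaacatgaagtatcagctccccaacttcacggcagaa
Met, 37.4 kb after the start, chr6:17501140-17501260, plus strand: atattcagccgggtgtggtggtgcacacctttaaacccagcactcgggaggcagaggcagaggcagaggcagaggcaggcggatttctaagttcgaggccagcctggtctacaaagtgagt
The window at 27.5 kb was coding sequence without masked bases, while the window at 37.4 kb, like that around the summit 29.4 kb after the start, was masked as repeats in the reference over its whole length. Of the 12080 regions on chromosomes called in all 4 libraries, 2.86% had over 50% masked bases within 100 bases of the summit.

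The repeat region in intron 3 (chr6:17492704-17494000) was the only 1 of the 7 tested regions in which LP replicate 1 exceeded LP replicate 2 and HP replicate 1. LP had pileups of 18 and 16 and HP of 15 and 26, scaled to 1.57, 1.04, 1.31 and 1.82. The groups overlapped. The log2 ratio was 0.27, with an interval of −0.79 to 1.34 and an adjusted p of 0.642 in limma, at percentile 4.02 of all tested regions. Reads in repeats can map to more than 1 place, and the part of this in the values was not tested.

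The intronic region further on (chr6:17500059-17502631, intron 3) was an element away from any start, and its summit window was masked as repeats as well. The caveat on reads in repeats applies here too, though the name repeat region is kept for the preceding region. LP had pileups of 12 and 24 and HP of 33 and 60, scaled to 1.05, 1.56, 2.87 and 4.21. Both HP libraries were above both LP libraries, with log2 ratios of 1.46 in replicate 1 and 1.43 in replicate 2. The limma estimate was 1.44 (interval 0.38 to 2.51), with an adjusted p of 0.075 that missed the threshold. The whole region held 3 matches to TCATGTG, the nearest 477 bases from the summit.

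Upstream of Met, 4.75 kb before the start, the region chr6:17458238-17459764 had pileups of 9 and 15 for LP and of 26 and 43 for HP, scaled to 0.785, 0.977, 2.26 and 3.02. Both HP libraries were above both LP libraries. Replicate 1 gave a log2 ratio of 1.53 and replicate 2 of 1.63, while all regions had 0.57 and 1.30. The adjusted p in limma was 0.058, with an estimate of 1.58 (interval 0.51 to 2.64), so this region missed the threshold too. limma found a common variance for all regions, hence its SE was 0.54 everywhere and the agreement of the replicates at a given region did not enter its p.

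**Figure D3:**
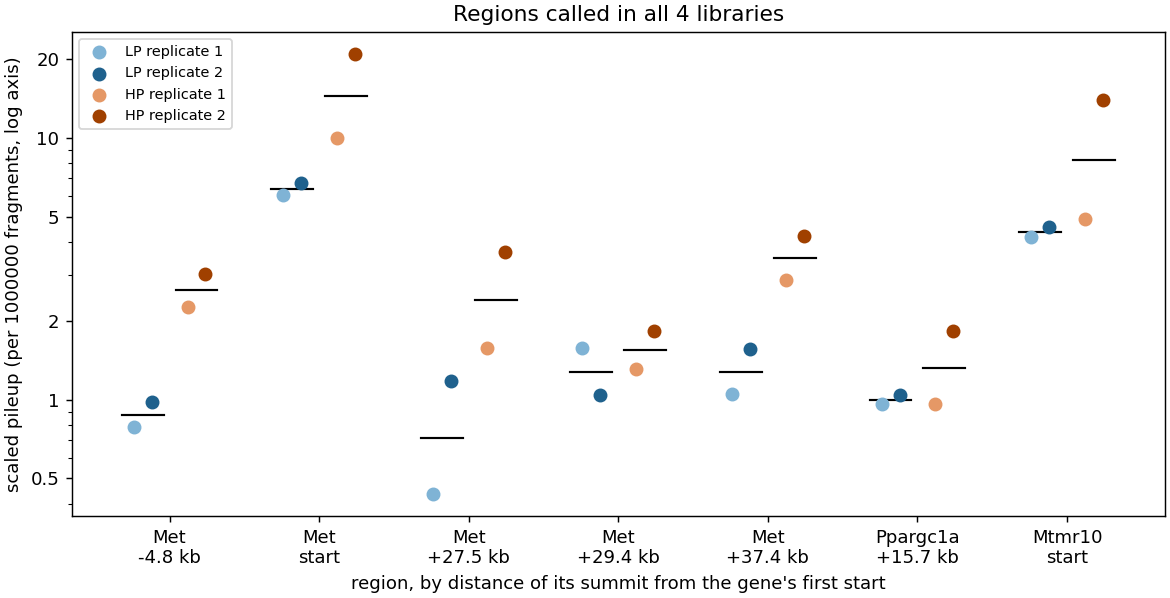
Scaled pileup (per 1000000 fragments, log axis) of the 7 regions called in all 4 libraries, with 1 point per library and black bars at the geometric mean of each group of 2. The groups separate in 4 of the 5 Met regions and at the Mtmr10 start, and overlap at Met +29.4 kb and at Ppargc1a.

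Ppargc1a showed low signal at both of its starts. The downstream start, used by the classical transcript, lay in the broad region chr5:51550999-51555199, which was called in every library. LP had pileups of 11 and 16 and HP of 11 and 26, scaled to 0.959, 1.04, 0.958 and 1.82. HP replicate 1 was at the level of LP, and only HP replicate 2 was higher. The log2 ratio was 0.40, with an interval of −0.66 to 1.47 and an adjusted p of 0.498 in limma, and its mean level was at percentile 6.21 of the regions tested. The centred ratio was −0.61, so relative to all regions this start was not higher in HP.

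The upstream start of Ppargc1a, 13.8 kb away, serves alternative first exons known from muscle. Its region (chr5:51567375-51568972) was called in both HP libraries, with a pileup of 10 and 17 (scaled, 0.871 and 1.19), and in neither LP library. It held the TCATGTG of the sequence above, 214 bases from the summit, and a TCACGTG 225 bases from it. In the gene body, a region in intron 2 (chr5:51544743-51545868) was also called in both HP libraries only, at 11 and 19. A neighbouring region over an exon (chr5:51548231-51548893) was called in LP replicate 2 at 10 and in HP at 9 and 14.

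Trpm1 was not called within 1 kb of its upstream start in any library, and the region nearest to that start lay within 3 kb. This nearest region was called in HP replicate 2 alone, at a pileup of 11. Of the 4 regions between the upstream and downstream starts, 3 were called in a single library, the nearest region among them. The other, 6.22 kb after the upstream start, was called in LP replicate 2 and HP replicate 1, at scaled pileups of 0.586 and 1.04. The region over the downstream start, 31.5 kb from the upstream one (chr7:64184599-64186157), had a pileup of 16 in LP replicate 2, 15 in HP replicate 1 and 42 in HP replicate 2, scaled to 1.04, 1.31 and 2.95, and was not called in LP replicate 1. It held more E-box matches than any other region of the 3 genes called in at least 2 libraries, with 5 CATGTG and 3 CACGTG in its 1559 bases, though none within 100 bases of the summit. A region in intron 1 (chr7:64191953-64193161), called in the same 3 libraries, was level between them at scaled pileups of 1.17, 1.22 and 1.12. Since LP replicate 1 had neither, no ratio of HP to LP was tested at Trpm1 itself.

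Trpm1 held regions called in a single group only, in both directions. A region over exon 4 (chr7:64201564-64202730), 332 bp from a coding start of Trpm1 and so a promoter region, was called in both LP libraries. Its pileup there was 8 and 16. It was called in no HP library, and was the only region of the 3 genes with this pattern. A region in intron 16 (chr7:64227466-64228150), within 3 kb of a noncoding start, was called in both HP libraries at 10 and 23 and in no LP library. It held 3 TCATGTG matches in a row, shown here because the other regions of the 3 genes called in both HP libraries only had at most 1.
Trpm1 intron 16, chr7:64227748-64227927, plus strand: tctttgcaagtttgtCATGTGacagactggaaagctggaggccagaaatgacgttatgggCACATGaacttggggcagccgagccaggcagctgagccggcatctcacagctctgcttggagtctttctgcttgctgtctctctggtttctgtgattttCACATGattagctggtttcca
The region over that noncoding start (chr7:64226826-64227129) was called in HP replicate 2 alone, at a pileup of 18. A further region called in both HP libraries only, in intron 1 (chr7:64193338-64193859), had 8 and 11. The 1 region of the Trpm1 window called in all 4 libraries belonged to the neighbour Mtmr10, a myotubularin-related gene. At the Mtmr10 start (chr7:64287151-64288335) LP had scaled pileups of 4.19 and 4.56 and HP of 4.88 and 13.9, at a log2 ratio of 0.91 (adjusted p = 0.182 in limma), beside the median of 0.92 over all regions.

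The 97 regions were mostly called in few libraries. In 1 library only were 59 (60.8%), at a median pileup of 9 in that library, against 81.7% of all regions, while 7 (7.22%) were called in all 4, against 6.60% of all regions. The highest of the regions with a call in a single library, in intron 4 of Met 54.5 kb after the start, had a pileup of 43 in HP replicate 2. Called in both HP and in no LP library were 8 regions (8.25%), against 3.94% of all regions. Among the 38 regions called in at least 2 libraries they made up 21.1%, against 21.5% of all such regions, so the share of the 3 genes was that of the background. The opposite pattern, 1 region, stood beside 0.249% of all regions. A missing call shows only that the authors' threshold was not reached, at a lowest pileup of 5 to 6.

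Met had 4 of the 8 regions called in both HP libraries only. Those in the introns had a pileup of 7 and 11 (chr6:17478848-17479476), 10 and 27 (chr6:17496545-17497272) and 8 and 8 (chr6:17498802-17499517). The remaining region, downstream of the gene (chr6:17589076-17589686), had 14 and 15. A pair of further Met regions was called in LP replicate 2 and both HP libraries. The region over an exon (chr6:17513125-17513996) had pileups of 25, 25 and 27, scaled to 1.63, 2.18 and 1.89. That in intron 4 (chr6:17515637-17517017) had 14, 15 and 26, scaled to 0.912, 1.31 and 1.82. A region over another coding start of Met, 83.2 kb after the first (chr6:17546790-17547403), was called in LP replicate 2 at a scaled pileup of 1.04 and in HP replicate 2 at 0.842, so LP was the higher of the pair.

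Of the 7 tested regions, 4 were higher in HP at an unadjusted p under 0.05 in limma, all at Met, against 36.2% of all regions. Both HP libraries exceeded both LP libraries in 5 of 7, against 74.8% of all regions. Without HP replicate 1, 5 regions passed the threshold, which were the Met regions other than the repeat region, at log2 ratios of 1.71 to 2.35, and the Mtmr10 start at 1.67, and over all regions 6919 passed in place of 485. The 4 promoter regions of the 3 genes, taken as within 3 kb of a start and so including the repeat region, had a median log2 ratio of 0.79, where all promoter regions had 0.90. The Met regions away from starts, 1 intronic with its summit in repeats and 1 upstream, had 1.44 and 1.58. All intronic regions had a median of 1.07 and all intergenic regions a median of 1.05. Of all intronic regions 9.85% passed the threshold and of all promoter regions 3.10%. With 2 regions, the difference between promoter and other elements of the 3 genes was not tested.

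**Figure D4:**
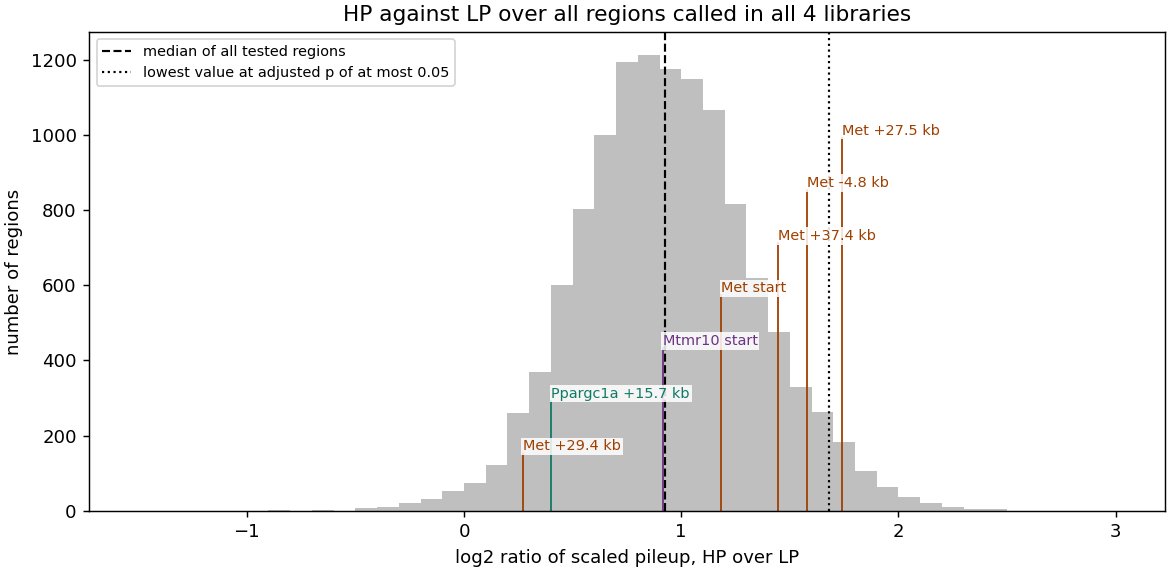
Number of regions by log2 ratio of scaled pileup, HP over LP, for all 12084 regions called in all 4 libraries, with the 7 regions in the windows of the 3 genes marked. The dashed line is the median of all regions at 0.92 and the dotted line the lowest ratio that passed, 1.68. Met +27.5 kb is the only mark to the right of the dotted line.

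Counted over the whole windows, all 3 genes had more peaks in both HP libraries than in both LP libraries. This held for 18.7% of all gene windows with a peak, of any length, while the 3 windows measured 150 to 156 kb. Length was not matched. Trpm1 had 5 and 9 peaks in LP and 13 in each HP library, Met had 19 and 15 against 26 and 29, and Ppargc1a had 4 and 10 against 14 and 13. The peaks of Met in LP covered 6144 and 8065 bp, those in HP 15168 and 21190 bp, a ratio of 2.56 between the means, where the median gene had 1.47. At Ppargc1a the cover was 868 and 3230 bp for LP and 5709 and 9208 bp for HP, a ratio of 3.64 at percentile 96.9 of genes. At Trpm1 it was 1703 and 5780 bp for LP and 5030 and 7300 bp for HP, so its groups overlapped, at a ratio of 1.65. The Trpm1 window includes the Mtmr10 start. With 3 kb on each side of the gene the ratio was 1.88, and the groups still overlapped. Both HP libraries exceeded both LP libraries in covered length in 40.0% of all gene windows, and in Met and Ppargc1a. Without LP replicate 2 the ratio of Ppargc1a was 8.59 and that of Trpm1 3.62, and without LP replicate 1 they were 2.31 and 1.07, as LP replicate 1 had the shortest cover in all 3 windows. LP replicate 1 also had the fewest peaks of the 4 lists and the lowest median pileup. With the same number of peaks taken from every list, by their q-value, the ratios were 2.53 at Met, 3.91 at Ppargc1a and 1.77 at Trpm1. The part of the lower pileup was not tested.

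**Figure D5:**
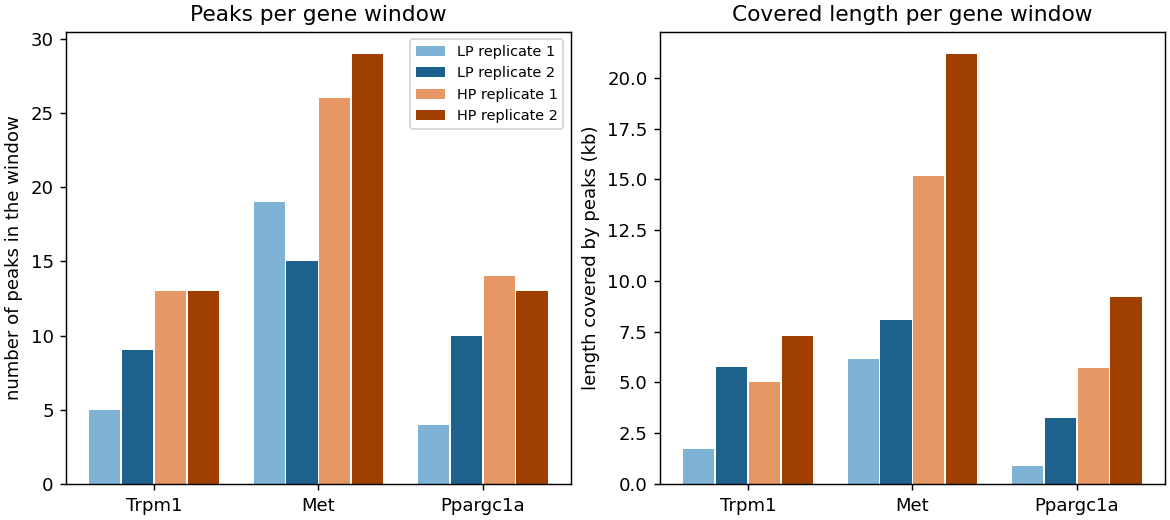
Number of peaks (left) and length covered by peaks in kb (right) in each gene with 20 kb on each side, with 1 bar per library. HP bars are above LP bars in peak number for all 3 genes and in covered length for Met and Ppargc1a.

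E-box matches lay near the summits of a minority of regions. Within 100 bases of the summit, 8 of the 38 regions called in at least 2 libraries (21.1%) held CATGTG or CACGTG on either strand, against 14.3% of the 33437 such regions on chromosomes. By gene they were 6 of 21 at Met, 2 of 10 at Trpm1 and 0 of 7 at Ppargc1a. Most were thus at Met, and the difference in share, over few regions, was not tested. TCATGTG was in 2 of the 38 (5.26%), against 2.39%, and TCACGTG in 0, against 1.33%. In whole regions, of a median 671 bases here and 886 over all, 65.8% and 52.6% held either short form. The windows within 100 bases of the summit had a median of 49.5% G and C here and 56.7% over all such regions. The part of this in the shares was not tested. A match describes the sequence only.

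Other genes that Mitf is known to regulate were read from the same fit. Of 24 such genes, with roles in melanin synthesis, melanosome transport, survival and the cell cycle, 17 had a start region in all 4 libraries. Among their 19 regions 1 was higher in HP (5.26%, against 4.01% of all regions tested) and 0 lower. At an unadjusted p under 0.05 in limma 8 were higher, where 36.2% of all regions were, and 0 lower. The median log2 ratio was 1.00, beside 0.92 over all regions, and the median centred ratio was −0.0064, beside −0.087. The region that passed was at Mlph, which encodes melanophilin, a linker of melanosomes to the actin motor, with scaled pileups of 1.22 and 0.977 for LP and 2.70 and 6.17 for HP (log2 ratio 1.90, adjusted p = 0.040 in limma). It too lost its call with the replicate block. Mlana, a melanosomal protein, had 2 such regions, at log2 ratios of 1.64 (adjusted p = 0.052) and 1.08 (adjusted p = 0.133), the latter nearer to its start, and Pmel, the fibril protein of melanosomes, had 1.48 (adjusted p = 0.071), from a region that it shares with Cdk2.

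Relatives and partners of the 3 genes comprised 20 genes, of which 11 had a start region in all 4 libraries. None of their 14 regions passed in either direction in limma, where 4.01% of all regions were higher in HP. At an unadjusted p under 0.05 in limma 1 was higher, against 36.2% of all regions. That 1 was Ppargc1b, the close relative of Ppargc1a, with scaled pileups of 2.35 and 2.41 for LP and 4.96 and 6.45 for HP (log2 ratio 1.25, adjusted p = 0.103). Its start was thus higher than that of Ppargc1a in every library. The median log2 ratio of the 14 regions was 0.85, below that of all regions. Of the Trpm channels, Trpm7 and Trpm8 had a start region in all 4 libraries and Trpm3 had no peak at a start. A start region lay within 3 kb of a start and can also hold the start of another gene, as at Pmel and Cdk2. The signal is therefore not assigned to Trpm7 or Trpm8 alone. Hgf, the ligand of Met, had a peak near a start only in LP replicate 2 and HP replicate 2.

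The start regions most like those of the members in their 4 scaled pileups were sought among 9667 genes, by the Euclidean distance of the log2 values. For the Met start these were Cflar, at a distance of 0.177, Prdx6 at 0.222 and Aup1 at 0.235. For the downstream start of Ppargc1a they were Amer1 at 0.172, Dgka at 0.243 and Sipa1 at 0.297. Such likeness over 4 libraries rests on level and depth as much as on the groups.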

How the data were processed

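H3K27ac ChIP-seq of LP and HP B16 F10 cells was analysed with 2 libraries per group. The authors trimmed the reads with Trimmomatic 0.33, aligned them to mm10 with Bowtie2 2.5.1 and called narrow peaks in each library with MACS 3.0.0b1, with the unsorted IgG library of that number as control and at a q-value cutoff of 0.05. The deposited pileup is an unscaled coverage signal, the whole number of fragments over the summit. The deposited fold enrichment is a ratio to the local IgG background, and the authors' −log10 q-values were used only to filter or rank peaks.

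Peaks of the 4 lists that shared at least 1 bp were joined, and a region took its highest summit per library. The highest pileup per 1000000 fragments was compared on the log2 scale over the 12084 regions called in all 4 libraries with limma 3.58.1 in R 4.3.3, and p-values were adjusted over all of them by Benjamini-Hochberg at a threshold of 0.05. An exact permutation test of 2 against 2 cannot go below 0.333. The regions of the 3 genes were read from that fit. Genes and starts are from GENCODE vM21, and a promoter region lay within 3 kb of a start. Motifs were counted with pyfaidx 0.9.0.4 on GRCm38, in which all peaks ended within the chromosome lengths. Tables were handled with pandas 2.3.3 and numpy 2.4.6 in Python 3.11.15, and plots were drawn with matplotlib 3.10.9. Joining and limma were tested on simulated data.

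LP and HP were sorted from the same culture per the labels, which do not say that a shared replicate number marks a shared culture. The replicate block was left out of the fit and tried as an alternative. Further alternatives were stricter q-values, joining within 500 bp, other windows, scalings and promoter definitions, and leaving out each library. The 3 genes and the gene lists were chosen with earlier results of these data known. Named regions are those called in all 4 libraries, in both libraries of a group only, or at a start of the gene. Regions called in LP replicate 2 and both HP libraries, and the highest region of a single library, were added after their values were seen. Reads were not used here. The sequence of 1 region is not reported here.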

Additional observations from a re-analysis of the deposited data

How the results depend on the processing

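Depth limits most of these values, since 59 of the 97 regions were called in 1 library at a median pileup of 9, and 1 of the 4 libraries decided several of them. Over regions, the change from replicate 1 to 2 in LP had a correlation of 0.0153 with that in HP. This value cannot decide whether the libraries of a replicate number are pairs, which the labels do not say. With the replicate number as a block, limma called 88 regions over all in place of 485, and 0 regions of the 3 genes in place of 1, and 0 of the other Mitf targets in place of 1. The block changed no other call among the regions named. After median centring, quantile normalization, a pseudocount of 0.5 or the mean of the summits the counts were 0, 0, 0 and 0 over all regions, and per fragment length 9. At a q-value of 0.001 the count was 33. Among the regions of the 3 genes it was 0 under each of these, at a q-value of 0.01 and when peaks within 500 bp were joined, and for the other Mitf targets 0 in each of the other fits over the same regions. Leaving out single libraries gave 0 to 6919 calls over all and 0 to 5 at the 3 genes. In these fits 1 group holds a lone library, which is assumed to vary like the libraries of the other group. The highest counts came without HP replicate 1, where the Met start (log2 ratio 1.71), the upstream Met region (1.78), Met 37.4 kb after the start (1.72) and the Mtmr10 start (1.67) passed.

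The median log2 ratio of the 7 regions was 1.18, and 0.17 after centring, 0.37 after quantile normalization and 0.42 to 1.71 without single libraries. The lowest value, without HP replicate 2, is over 6 regions, and that without LP replicate 1, 0.81, over 12, since the regions called in the remaining libraries differ. The direction turned at the repeat region of Met (−0.74 after centring, −0.69 after quantile normalization, and −0.024 to 0.57 without single libraries), at Ppargc1a (−0.61, −0.55 and −0.062 to 0.87) and at the Mtmr10 start after centring (−0.097), a scaling that takes the same amount from every ratio and puts the median of all regions at −0.087. Regions called in HP and no LP numbered 5 when peaks were joined, and 8 and 13 without LP replicate 1 or 2. Without HP replicate 1 or 2 they numbered 34 and 28, where a call in the 1 remaining HP library was enough. The share of all regions under these settings is not given, so the rise is not read as a result about the 3 genes. The ratio of covered length was 2.70 and 2.97 at Met at q-values of 0.01 and 0.001. Without single libraries it was 2.13 to 2.98 at Met, 1.07 to 3.62 at Trpm1 and 2.31 to 8.59 at Ppargc1a. Counted over whole regions, 65.8% rather than 21.1% held an E-box match.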
